A study of Mus musculus with 12 samples.

Results

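The respiratory chain genes were taken as every gene in the deposited count tables whose symbol marks a subunit or a named assembly factor of complexes I to IV or of ATP synthase. This rule found 107 genes among the 18719 listed in at least 1 of the 2 tables, of which 94 lie in the nuclear genome and 13 in the mitochondrial genome. Of these, 106 were listed in both the unstimulated and the LPS table, and Ndufa4l2 was listed in the unstimulated table alone. A further 12 names ending in -ps, which mark pseudogenes, were left out. The annotation calls 103 of the 107 protein coding, 3 processed pseudogenes (Ndufb4c, Ndufs6b and Cox6c2) and 1 a noncoding RNA that shares a promoter (Ndufb1).

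RNA-seq was performed on J774A.1 cells, a mouse macrophage line, in 4 groups of 3 libraries: wild-type (WT) unstimulated, ACAT1 KO unstimulated, WT after LPS and ACAT1 KO after LPS. The KO cells had received a Cas9-GFP plasmid carrying a guide against the fourth exon of Acat1, and the WT cells the same plasmid without a guide, so both genotypes went through transfection, sorting and outgrowth. Each genotype is represented by 3 lines, which the study's methods describe as clonal populations although a few sorted cells were plated to a well, and a line may therefore differ from another for reasons other than Acat1. LPS, a bacterial cell wall component sensed by TLR4, was given at 100 ng/ml for 2 hours. Beyond the line number, nothing in the sources marks the libraries as separate cultures, and p-values measure the spread between these libraries.

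The respiratory chain passes electrons from NADH and succinate to oxygen through complexes I to IV in the inner mitochondrial membrane, pumps protons across it, and ATP synthase uses the returning protons to make ATP. Mitochondrial DNA encodes a small set of core, membrane-embedded subunits, transcribed as long strands that are cut into single RNAs, whereas all other subunits and all assembly factors are nuclear. Complexes I, III, IV and ATP synthase are built from both genomes and complex II from nuclear genes alone. In macrophages, activation by LPS is known to turn metabolism towards glycolysis and to change how the chain is used.

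Library totals ran from 56948593 to 167280149 counts. Acat1, which encodes mitochondrial acetyl-CoA acetyltransferase, was lower in the KO libraries in both states (log2 fold change -1.87 unstimulated and -2.08 after LPS, adjusted p = 0.00876 and 7.87e-04 in edgeR's quasi-likelihood test, adjusted by Benjamini-Hochberg). All 9 macrophage markers looked up were listed, from Mertk at 17.1 to 52.2 CPM (counts scaled to a common library size) and Adgre1 at 37.7 to 166 CPM up to Lyz2 at 5020 to 7413 CPM. In ACAT1 KO, 2 of the 9 were called lower unstimulated, and 3 higher and 1 lower after LPS. Of the markers of other cell types none of the 3 epithelial ones was listed, and the highest was Pdgfra, a fibroblast marker, at 1.14 to 12.95 CPM, called higher after LPS in both genotypes and higher in ACAT1 KO than in WT after LPS, and its part in the results was not tested. 3 unstimulated libraries stood apart, WT 1, WT 2 and ACAT1 KO 2. Antisense counts, those on noncoding genes lying largely opposite exons of protein coding genes, made up 0.0388 to 0.0598% of their totals. In the 9 other libraries the share was 0.00885 to 0.0106%. Results that rest on these 3 libraries are given with and without them.

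The nuclear respiratory genes took a narrow and similar share of every library of a state. Their 94 genes made up 1.10, 1.08 and 1.20% of the counts in WT unstimulated libraries 1 to 3, and 1.19, 1.10 and 1.22% in ACAT1 KO unstimulated libraries 1 to 3. After LPS the shares were 0.958, 0.942 and 0.911% in WT and 0.912, 0.902 and 0.948% in ACAT1 KO. The genotypes overlapped in both states, and every LPS library lay under every unstimulated one. These shares are of raw totals: the median of all genes tested was itself -0.21 (WT) and -0.22 (ACAT1 KO) on the log2 scale after LPS when raw totals were used.

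The 13 mitochondrial genes took 9.19, 3.38 and 2.75% of the counts in WT unstimulated libraries 1 to 3. In ACAT1 KO unstimulated libraries they took 3.70, 3.94 and 3.52%. After LPS they took 2.90, 2.27 and 2.21% in WT and 2.18, 2.08 and 2.13% in ACAT1 KO. WT unstimulated library 1 stood far above all others and was the highest of the 12 libraries for 12 of the 13 mitochondrial genes. The exception was mt-Atp8, highest in ACAT1 KO unstimulated library 3. Without WT library 1 the 2 remaining WT unstimulated libraries lay under all 3 ACAT1 KO libraries, and with it the groups overlapped. In bulk RNA, a change in the number of mitochondria or of cells and a change in RNA per cell cannot be told apart.

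**Figure D1:**
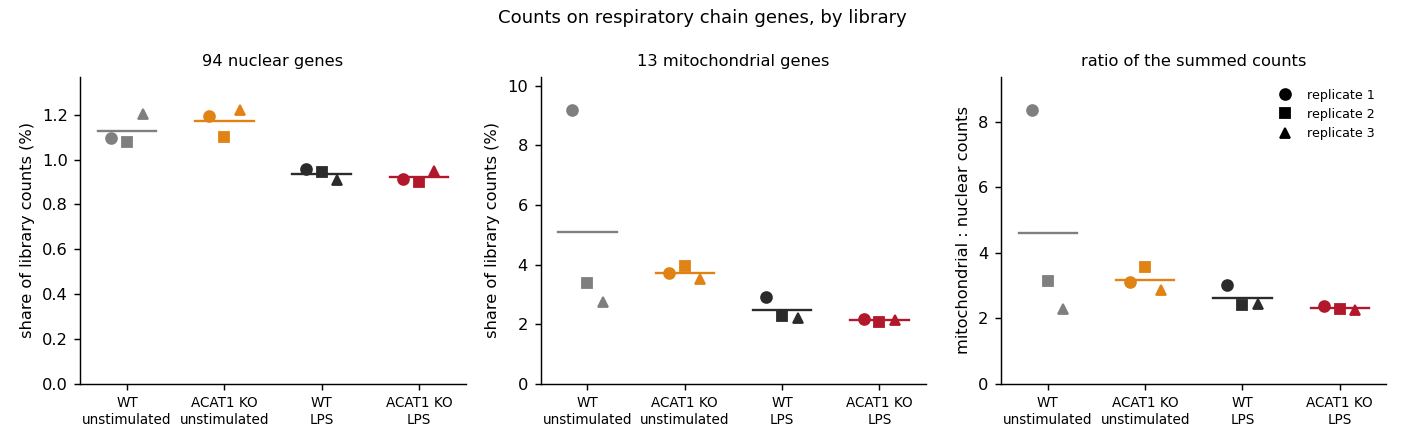
Share of each library's counts (%) on the 94 nuclear genes (left) and the 13 mitochondrial genes (middle), and the ratio of the summed mitochondrial to nuclear counts (right), in the 4 groups. Each point is 1 library, its shape the replicate number and the line the mean of 3. WT unstimulated library 1 has a ratio of 8.37, and the 11 others lie between 2.25 and 3.58.

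The mitochondrial genes fell into abundant and scarce sets that did not follow the complexes. In WT unstimulated cells the mean level per kilobase of transcript was 12970 CPM per kb for mt-Co1, the catalytic subunit of complex IV, and 10290 for mt-Cytb, the mitochondrial subunit of complex III. The complex I subunits mt-Nd1, mt-Nd2, mt-Nd5 and mt-Nd4 followed at 4761, 3226, 2323 and 1981 CPM per kb. The other 2 mitochondrial subunits of complex IV, mt-Co2 and mt-Co3, were at 62.0 and 60.3 CPM per kb, far under mt-Co1 of the same complex. mt-Nd6 and mt-Atp8 had means in between, 536 and 163 CPM per kb, from libraries that differed widely: mt-Nd6 was at 501, 284 and 49.1 CPM in WT unstimulated libraries 1 to 3, high in the 2 antisense-rich ones, and mt-Atp8 at 19.2, 7.20 and 73.3 CPM, high in library 3 alone. mt-Atp6 (a proton channel subunit of ATP synthase) was at 74.8, mt-Nd4l at 15.7 and mt-Nd3 at 7.57 CPM per kb. By comparison, the median nuclear respiratory gene was at 77.8 CPM per kb. The same sets were abundant and scarce in the other 3 groups, as the plot of the 13 levels shows, except that mt-Atp8 lay among the scarce genes after LPS (26.3 CPM per kb in WT).

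Each of the 5 scarce genes mt-Co2, mt-Co3, mt-Atp6, mt-Nd3 and mt-Nd4l has at least 99% of its transcript repeated, at 99% identity or more over 100 bases or more, in an annotated gene of chromosome 1. These copies lie together on the minus strand of chr1:24611535-24616197 (GRCm38), a stretch of the mitochondrial genome inserted in the nucleus, and all 7 annotated there as unprocessed pseudogenes (Gm28439, Gm10222, Gm28438, Gm28437, Gm10925, Gm28661 and Gm29216) were listed with counts. Of mt-Nd4, 63.6% is repeated there and of mt-Co1 31.3%, and no annotated transcript repeats mt-Cytb, mt-Nd1, mt-Nd2, mt-Nd5, mt-Nd6 or mt-Atp8. Only annotated transcripts were searched. mt-Atp8 lies between mt-Co2 and mt-Atp6, and the stretch between their copies was not searched. That stretch runs from the end of Gm10925 (24614651) to the start of Gm28661 (24614885), so the level of mt-Atp8 may be uncertain too. Of the counts of mt-Co2 and its copy Gm28661 combined, 38.5 to 45.9% stood on the copy over the 12 libraries. For mt-Nd3 and Gm28438 it was 51.5 to 71.6%, and for mt-Atp6 and Gm10925 34.7 to 73.3%. The levels of these genes are therefore uncertain: the sources do not give how reads that fit both places were counted.

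How close gene and copy are is shown by 60 bases from the middle of mt-Co2 (chrM:7323-7382, plus strand) beside the same stretch of Gm28661 (chr1:24615196-24615255, minus strand), and by the first 60 bases of mt-Nd3 (chrM:9459-9518, plus strand) beside those of Gm28438 (chr1:24613060-24613119, minus strand), all GRCm38 and read 5′ to 3′. The mt-Co2 and Gm28661 transcripts had 0 differences over 681 bases. mt-Nd3 and Gm28438 differed at 1 of 345 bases, T3C counted from 1 at the 5′ end of mt-Nd3, which is in capitals.
mt-Co2: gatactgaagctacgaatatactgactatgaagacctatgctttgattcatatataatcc
Gm28661: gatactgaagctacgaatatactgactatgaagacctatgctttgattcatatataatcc
mt-Nd3: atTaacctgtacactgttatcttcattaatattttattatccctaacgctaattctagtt
Gm28438: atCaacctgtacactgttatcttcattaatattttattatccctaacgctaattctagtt

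**Figure D2:**
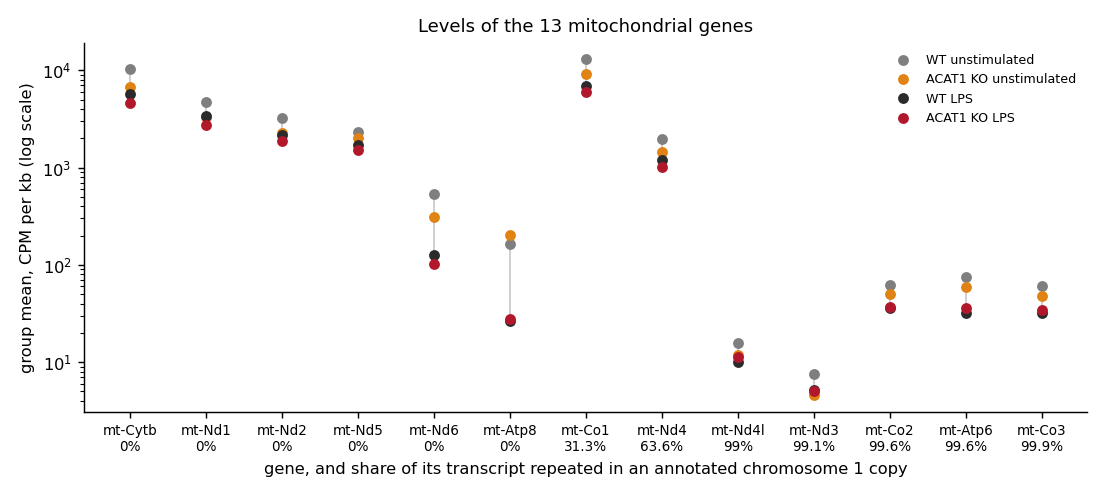
Mean level of each of the 13 mitochondrial genes in the 4 groups (CPM per kb of transcript, log scale), ordered by the share of its transcript that an annotated chromosome 1 gene repeats (printed under each name). The 5 genes repeated by at least 99% lie at or under 74.8 CPM per kb, and mt-Co1 and mt-Cytb reach 12970 and 10290.

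Within the mitochondrial genome, 2 pairs of genes kept one ratio in most libraries and another in a few. mt-Nd6, a complex I subunit, is the only one of the 13 on the opposite strand (chrM:13552-14070), and overlaps mt-Nd5 by 14 bases. mt-Nd6 counts were 7.17 and 8.46% of mt-Nd5 counts in WT unstimulated libraries 1 and 2 and 8.88% in ACAT1 KO unstimulated library 2, and 1.66 to 2.18% in the 9 others. These are the same 3 libraries that are rich in antisense counts. The library kit was directional, and whether the counting used strand is not given. The cause of the different ratio was not tested. mt-Atp8, a small ATP synthase subunit (chrM:7766-7969), overlaps the start of mt-Atp6 by 43 bases on the same strand. Its counts were 196 and 222% of mt-Atp6 counts in WT and ACAT1 KO unstimulated library 3, and 21.2 to 28.8% in the 10 others.

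**Figure D3:**
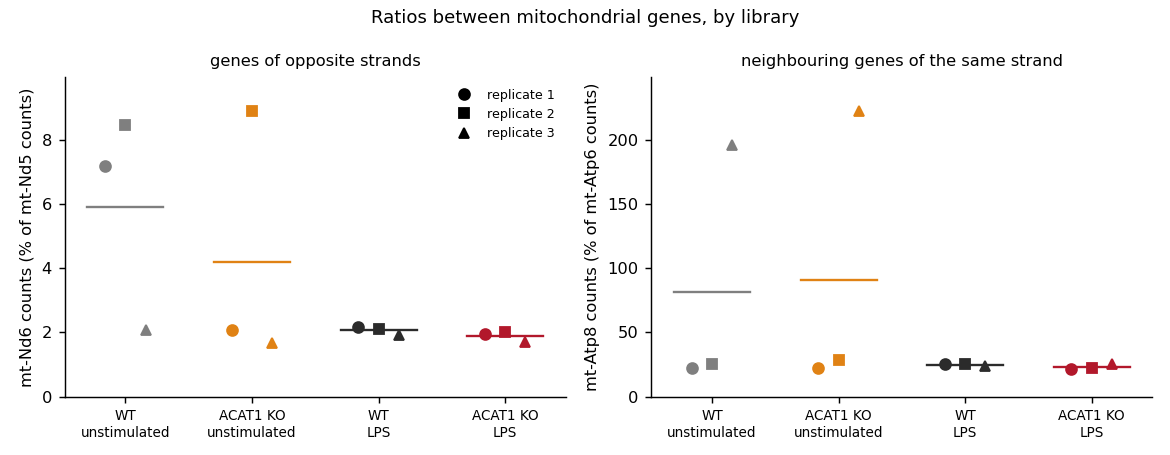
Counts of mt-Nd6 as a percentage of those of mt-Nd5 (left) and of mt-Atp8 as a percentage of those of mt-Atp6 (right). Each point is 1 library, its shape the replicate number and the line the mean of 3; the LPS libraries keep close to 2% and 25% and 3 unstimulated libraries on the left and 2 on the right stand apart.

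The next comparison asked how loss of Acat1 changed these genes in resting cells. DESeq2 called 8 members (7 higher, 1 lower), beside 1721 genes in all, where edgeR called 314 of 16440 genes. A single member was called by edgeR. It was Ndufs3, a core subunit of the arm of complex I that carries the iron-sulfur clusters (chr2:90894634-90904827, minus strand), higher in ACAT1 KO. Its levels were 45.8, 41.3 and 50.9 CPM in WT libraries 1 to 3 and 66.0, 61.4 and 63.8 CPM in ACAT1 KO libraries 1 to 3. All 3 KO libraries lay above all WT libraries, and the log2 fold change was 0.48 (SE 0.0852, adjusted p = 0.0477, edgeR's quasi-likelihood test, adjusted by Benjamini-Hochberg over 16440 genes). Thus 1 of 106 members tested was called, against 1.91% of all genes. With 1 library left out in turn the log2 fold change of Ndufs3 was 0.41 to 0.56, and the call held only without WT library 3. It was also lost under a replicate block and without the antisense-rich libraries.

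The other unstimulated differences were smaller than the spread between libraries allowed to be called. At an unadjusted p under 0.05, 16 members were higher and 1 was lower, 17 of 106 against 19.7% of all genes. Of the 93 nuclear genes tested, 79 had a positive log2 fold change and the median was 0.12, against 0.00 for all genes. The share of positive values over all genes was not counted. With a term for the antisense-rich libraries the nuclear median was 0.05, against 0.015 for all genes. From differences of mean log2 CPM without a fit, 54 of 93 were positive within the antisense-rich libraries (2 WT, 1 KO, median 0.02). Within the others (1 WT, 2 KO) 71 of 93 were positive, with a median of 0.08. 10 nuclear genes were higher and 1 lower in every KO library than in every WT library, and 25.5% of all genes were apart in this way. The lower one was Atp5b, the catalytic beta subunit of ATP synthase, at 1242, 1234 and 1185 CPM in WT and 978, 862 and 987 CPM in ACAT1 KO (log2 fold change -0.36, adjusted p = 0.0685). The 8 assembly factors of complex I had the highest median of the nuclear groups, 0.24, with none called. At the far end of the range stood the pseudogene Ndufs6b at 0.66, with 0.0916 to 0.261 CPM a level too low to read.

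The mitochondrial genes went the other way on average and were not called. Their median log2 fold change was -0.43 and 12 of 13 were negative, the exception being mt-Atp8. The standard errors were large, with a median of 0.476 against 0.107 for nuclear genes. mt-Co1 was at 37670, 12440 and 9987 CPM in WT libraries and 14070, 15050 and 13040 CPM in ACAT1 KO libraries (log2 fold change -0.50, adjusted p = 0.629). 1 WT library lay far above the KO range and the others under it. The median of the mitochondrial genes minus that of the nuclear genes was -0.55, and 0.21 without WT library 1. Taken from differences of mean log2 CPM without a fit, it was -0.33 over all 6 libraries, -0.29 within the antisense-rich libraries (2 WT, 1 KO) and 0.34 within the others (1 WT, 2 KO), so the direction differed between them.

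**Figure D4:**
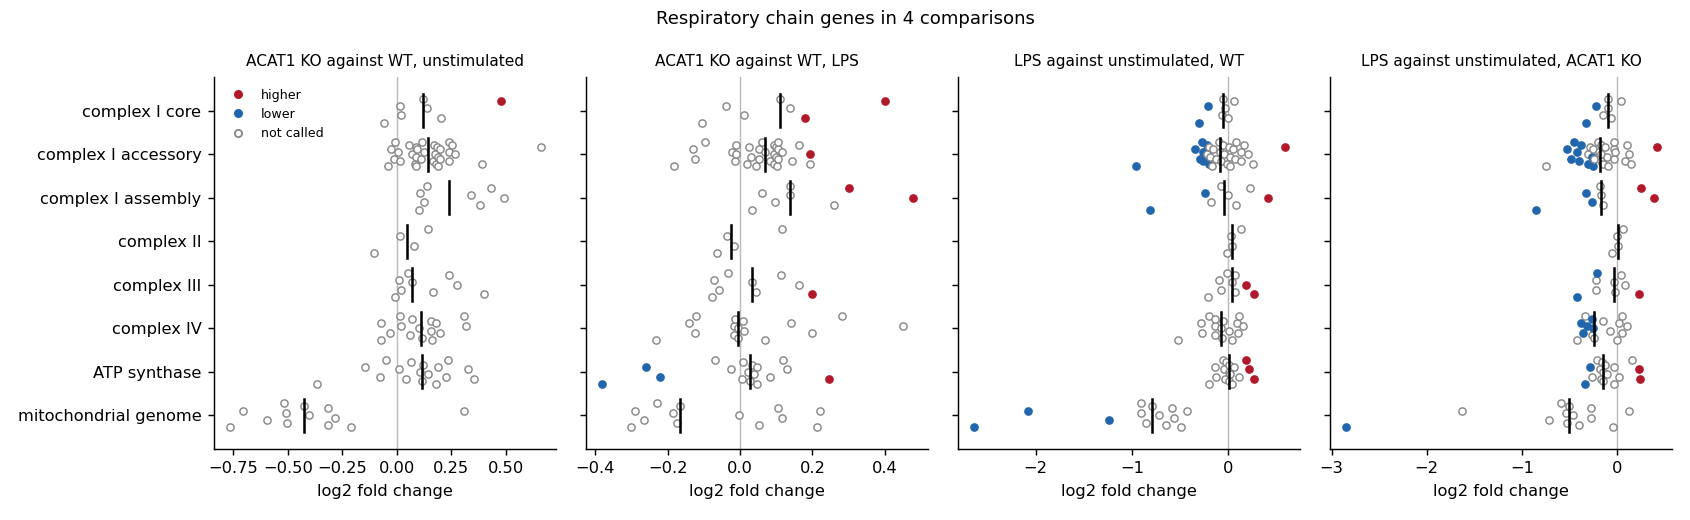
Log2 fold change of each member by complex in 4 comparisons (panel titles; scales differ between panels). Filled points were called at an adjusted p under 0.05 in edgeR's quasi-likelihood test, red higher and blue lower, open points were not called, and bars mark medians. The nuclear medians of the genotype comparisons lie close to 0, and the mitochondrial genes spread widest after LPS.

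After LPS the libraries of a genotype lay closer together, and 10 of 105 members tested were called between genotypes, against 15.1% of 16483 genes. Of these 7 were higher and 3 lower in ACAT1 KO, beside 5.93 and 9.12% of all genes, so the share of members called was not above the background. In 22 nuclear genes all KO libraries lay above all WT libraries and in 8 under them, 30 of 92 tested against 37.8% of all genes. The 2 largest increases among the called genes were in complex I genes. Ndufs3 was at 43.0, 42.2 and 47.7 CPM in WT and 57.7, 57.8 and 57.4 CPM in ACAT1 KO, and rose by 0.40 on the log2 scale (SE 0.0638, adjusted p = 0.00797 in edgeR's quasi-likelihood test, Benjamini-Hochberg adjusted). Ndufaf1, an early assembly factor of the membrane arm of complex I (chr2:119655446-119662827, minus strand), was at 16.5, 16.8 and 18.4 CPM in WT and 22.9, 23.6 and 24.3 CPM in ACAT1 KO (log2 fold change 0.48, SE 0.0697, adjusted p = 0.00645 in the same edgeR test). In both genes the KO libraries lay above all WT libraries and varied by less. These 2 calls were kept whichever library was left out, and the other 8 were not.

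The remaining increases were small. Ndufv1, the NADH-binding core subunit of complex I, was at 74.6, 76.9 and 72.9 CPM in WT and 84.0, 84.7 and 82.0 CPM in ACAT1 KO (log2 fold change 0.18, adjusted p = 0.0442 in edgeR). Ndufa13, an accessory subunit, rose by 0.19, the assembly factor Ndufaf5 by 0.30, Uqcrq (a small subunit of complex III) by 0.20 and Atp5e (the epsilon subunit of ATP synthase) by 0.25 on the log2 scale, with adjusted p between 0.0206 and 0.0465 in edgeR. None of the complex II or complex IV genes was called.

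The 3 genes that fell all belong to ATP synthase, but with upper-quartile factors 9 members were higher and 1 lower, Atp5b alone of the 3, and with a length and GC trend removed 5 were higher and 6 lower. Atp5b (chr10:128083273-128090391, plus strand) was at 1549, 1540 and 1324 CPM in WT and 1116, 1106 and 1115 CPM in ACAT1 KO, a log2 fold change of -0.38 (SE 0.0738, adjusted p = 0.0153 in edgeR). The WT libraries lay above all KO libraries, WT library 3 nearest to them. Atp5g2, 1 of 3 genes for the c subunit of the rotor ring, fell by 0.22 on the log2 scale (adjusted p = 0.0411 in edgeR). Its transcript is repeated by 88.2% in the pseudogene Gm10175, which had at most 0.141 CPM in the unstimulated libraries. Atp5mpl, a small membrane subunit, fell by 0.26 (adjusted p = 0.0457 in edgeR), a gene named after its value was seen. The remaining 13 of 17 ATP synthase genes were not called, Atp5a1 (the alpha subunit that alternates with Atp5b in the catalytic head) at -0.03 among them.

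5 of these 10 genes lie in chromosome segments where many neighbours moved the same way. Ndufs3, Ndufaf1, Ndufaf5 and Atp5e lie on chromosome 2 beyond 90 Mb, where 260 genes were higher and 8 lower in ACAT1 KO of 712 tested after LPS (median log2 fold change 0.28). Atp5mpl lies on chromosome 12, where 12 were higher and 240 lower of 584 (median -0.28). Over all other chromosomes 705 were higher and 1256 lower of 15169 (median -0.01), and of the 97 members there 3 were higher and 2 lower. When both segments were left out of the fit, 4 members were called after LPS and 0 unstimulated. No outside source defined these segments, so the counts within them are a description. The bound of 90 Mb was a fixed setting, and Ndufs3, which starts at 90894634, lies just inside it. The part of the segments in these differences was not tested.

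The mitochondrial genes were not called after LPS either. mt-Co1 was at 12290, 10080 and 9727 CPM in WT and 9734, 9297 and 9030 CPM in ACAT1 KO (log2 fold change -0.17, adjusted p = 0.295 in edgeR), and the groups overlapped by a narrow margin. The median of the 13 was -0.17 and that of the nuclear genes 0.04.

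The effect of LPS was then compared with the unstimulated state within each genotype; the 2 responses and the genotype comparisons use the same libraries, so their values are given side by side and are not independent. In the main fit most genes tested were called, and most respiratory chain genes were not. In WT, 22 of 106 members were called against 57.4% of all genes tested, 7 higher (background 29.3%) and 15 lower (background 28.0%). In ACAT1 KO, 30 of 106 were called against 60.7%, 6 higher (background 29.5%) and 24 lower (background 31.2%). The median size of the log2 fold change was 0.11 (WT) and 0.17 (ACAT1 KO) over the nuclear members, and 0.47 and 0.50 over all genes. 89 and 90 of the 93 nuclear genes tested stayed within 0.5 of no change on the log2 scale, as did 52.6 and 50.2% of all genes. Among genes of like level, at 6 to 8 on the log2 CPM scale, 69.7% of all genes and 7 of 52 nuclear members were called in WT.

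Small changes and their calls depended on the libraries and on the scaling. Without the 3 antisense-rich libraries, when WT unstimulated is left with 1 library, the nuclear medians were -0.15 in WT and -0.21 in ACAT1 KO. With all libraries they were -0.03 and -0.15. With upper-quartile factors the median of all genes moved to -0.23 in WT and -0.17 in ACAT1 KO, from -0.02 and -0.03. On that scale 1 member was higher and 60 lower in WT and 1 and 61 in ACAT1 KO, of 106 tested. Beside them 10309 and 10481 of 16535 genes were called, so most members and most genes alike were called on that scale. Under raw totals the nuclear medians were -0.33 and -0.44. Directions below are relative to the other genes of a library, and a higher call that did not hold on the upper-quartile scale is marked beside the gene.

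The largest change among nuclear genes of protein coding type was in Ndufaf7, a methyltransferase that acts in the assembly of complex I (chr17:78937136-78948052, plus strand). It was at 18.5, 16.8 and 20.9 CPM in unstimulated WT and 10.5, 10.6 and 11 CPM in WT after LPS. In ACAT1 KO it was at 21.3, 19.8 and 19.8 CPM unstimulated and 11.3, 11.4 and 11.1 CPM after LPS. No library of one state came near the other, and Ndufaf7 fell by 0.81 in WT (SE 0.0784, adjusted p = 3.03e-06) and by 0.85 in ACAT1 KO (SE 0.0782, adjusted p = 1.71e-06) on the log2 scale in edgeR's quasi-likelihood test. Both calls held under all scalings and with any library left out. Of the higher genes, Ndufb1 did so in both genotypes, an accessory complex I gene that the annotation lists as noncoding (chr12:101968090-101977068, minus strand), at 43.2, 34.2 and 47.1 CPM in unstimulated WT and 64.7, 62.4 and 60.4 CPM after LPS. In ACAT1 KO it went from 41.8, 36.2 and 43.6 CPM to 53.6, 54.5 and 54.6 CPM. Its log2 fold changes were 0.59 (adjusted p = 3.84e-04) and 0.42 (adjusted p = 0.0039 in edgeR), and 0.38 and 0.27 with upper-quartile factors.

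**Figure D5:**
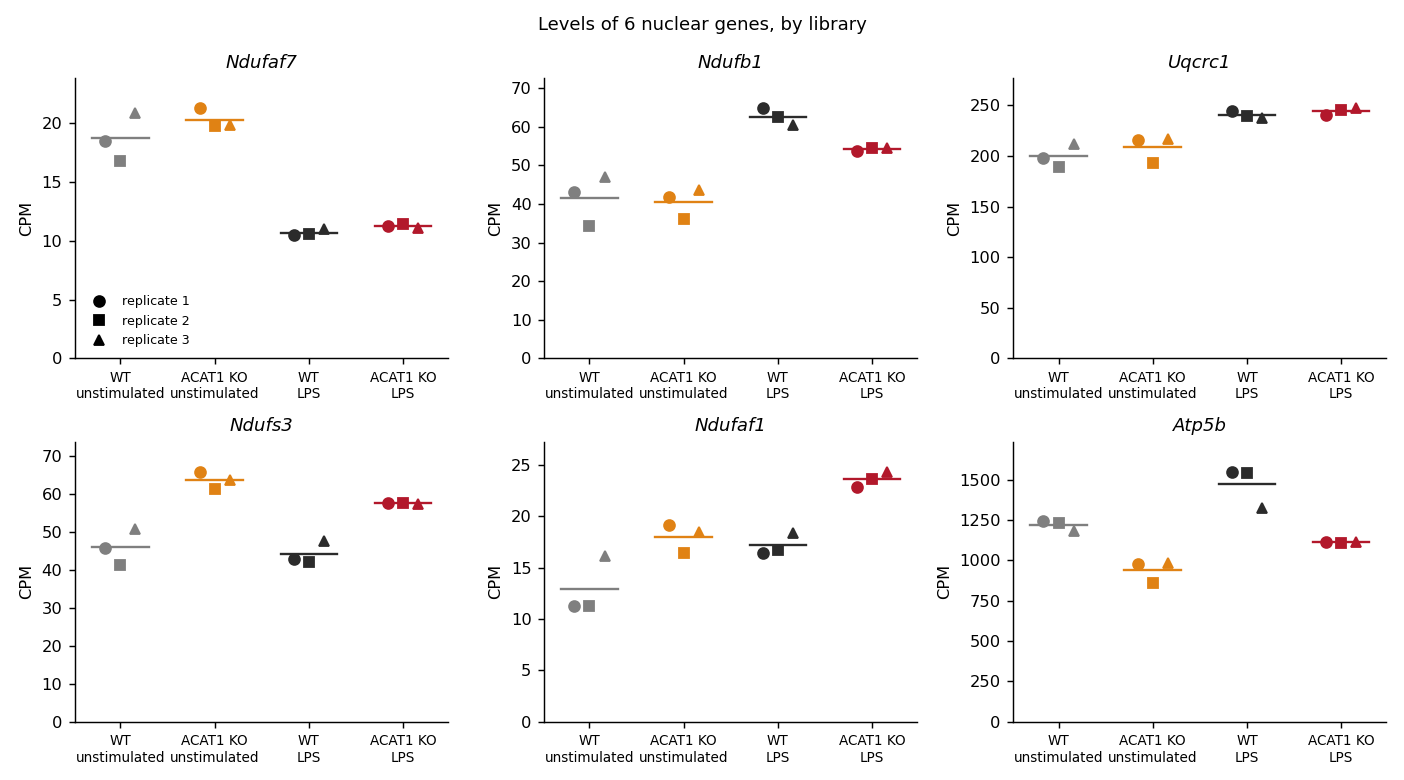
Levels (CPM) of 6 nuclear genes in the 12 libraries, with the mean of each group of 3 as a line and the replicate number as the shape of the point. Ndufaf7 is lower and Ndufb1 and Uqcrc1 are higher after LPS in both genotypes; Ndufs3 and Ndufaf1 are higher and Atp5b lower in ACAT1 KO than in WT after LPS.

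Most other complex I genes that were called were lower. Of the 32 accessory genes 1 was higher and 8 lower in WT, and 1 higher and 9 lower in ACAT1 KO. Of all genes 29.3% were higher and 28.0% lower in WT, and 29.5 and 31.2% in ACAT1 KO. The share of accessory genes called lower was thus not above the background, and that of higher ones was under it. Ndufs4, an accessory subunit needed for a stable NADH-binding arm, fell by 0.29 in WT (adjusted p = 0.00527) and 0.38 in ACAT1 KO (adjusted p = 7.81e-04 in edgeR). Ndufb11, a membrane-arm subunit, fell by 0.27 and 0.48, and Ndufb4, in the same arm, by 0.26 and 0.52. Of the 7 nuclear core subunits, 2 (28.6%) fell in both genotypes, a share close to the same background. Ndufv2, which holds an iron-sulfur cluster beside Ndufv1, was at 111, 103 and 126 CPM in unstimulated WT and 92.4, 91.8 and 90.8 CPM after LPS, and fell by 0.31 in WT and 0.32 in ACAT1 KO (adjusted p = 0.00475 and 0.00323 in edgeR). Ndufs7, which passes electrons to ubiquinone, fell by 0.20 and 0.22.

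The assembly factors of complex I did not move as one. Besides Ndufaf7, Ndufaf3 fell by 0.24 in WT and 0.33 in ACAT1 KO (adjusted p = 0.0238 and 0.00334 in edgeR). Ndufaf1 rose by 0.42 and 0.39 (adjusted p = 0.0139 and 0.0175 in edgeR), from 11.2, 11.3 and 16.1 CPM to 16.5, 16.8 and 18.4 CPM in WT. WT unstimulated library 3 lay near the LPS libraries, and neither Ndufaf1 call held with upper-quartile factors (0.21, adjusted p = 0.152, and 0.24, adjusted p = 0.0969, in edgeR).

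Complex II, the succinate dehydrogenase that also works in the citric acid cycle, showed no called gene in any of the comparisons. Sdha, its FAD-binding subunit, was at 196, 216 and 208 CPM in unstimulated WT and 204, 223 and 208 CPM after LPS (log2 fold change 0.03, adjusted p = 0.65 in edgeR). The LPS responses of Sdhb, Sdhc and Sdhd lay between -0.06 and 0.14 over both genotypes. The states overlapped for Sdha, Sdhb and Sdhc in both genotypes and for Sdhd in ACAT1 KO, but in WT Sdhd was at 157, 142 and 158 CPM unstimulated and 172, 168 and 163 CPM after LPS, without overlap (log2 fold change 0.14, adjusted p = 0.0516 in edgeR). Upper-quartile factors put Sdha at -0.18 in WT (adjusted p = 0.0134 in edgeR).

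In complex III the core protein Uqcrc1 was at 198, 189 and 212 CPM in unstimulated WT and 245, 240 and 237 CPM after LPS, above all unstimulated libraries. It rose by 0.27 in WT and 0.23 in ACAT1 KO (adjusted p = 0.00272 and 0.00699 in edgeR). With upper-quartile factors it was at 0.06 (adjusted p = 0.36) and 0.08 (adjusted p = 0.218, both in edgeR). On that scale it lay above the median of all genes and was not called. The Rieske iron-sulfur subunit Uqcrfs1 was at 0.19 in WT (adjusted p = 0.0293 in edgeR) and -0.02 with upper-quartile factors. Uqcrq fell by 0.42 in ACAT1 KO (adjusted p = 0.00129 in edgeR) and was at -0.21 in WT (adjusted p = 0.0623), and Cyc1, the cytochrome c1 subunit, was at 0.07 and -0.03 with no call.

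In complex IV no nuclear gene was called in WT, beside 57.4% of all genes. In ACAT1 KO 5 of the 16 tested were lower, 31.2%, the same share as of all genes, and none was higher. Cox7b, a small membrane subunit, was at 163, 156 and 170 CPM in unstimulated ACAT1 KO and 126, 121 and 128 CPM after LPS, with no overlap, and fell by 0.38 (adjusted p = 0.00263 in edgeR). In WT it was at 168, 131 and 142 CPM and then 137, 130 and 119 CPM, a log2 fold change of -0.19 (adjusted p = 0.0785 in edgeR), and the difference between the genotypes was not called. Cox7a2 fell by 0.26 in ACAT1 KO (adjusted p = 0.0288 in edgeR). Cox4i1 and Cox5a, which join mt-Co1 early in assembly, lay between 0.02 and 0.10 in both genotypes.

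For ATP synthase, both subunits of the catalytic head were called higher after LPS in both genotypes. So were 29.3% of all genes in WT and 29.5% in ACAT1 KO. Their log2 fold changes lay above the median of all genes, -0.02 and -0.03, but under the median size over all genes, 0.47 and 0.50. Atp5a1 was at 676, 638 and 691 CPM in unstimulated WT and 800, 764 and 763 CPM after LPS, and at 662, 602 and 659 CPM and then 752, 754 and 748 CPM in ACAT1 KO. Atp5b, at 1242, 1234 and 1185 CPM in unstimulated WT, was at 1549, 1540 and 1324 CPM after LPS. In both genes the states did not overlap, with log2 fold changes of 0.22 and 0.27 in WT and 0.23 and 0.24 in ACAT1 KO (adjusted p = 0.00451 to 0.015 in edgeR). Upper-quartile factors put all 4 between 0.01 and 0.09 with no call. Atp5l, a membrane subunit, fell by 0.34 in ACAT1 KO (adjusted p = 0.00322 in edgeR) and was at -0.13 in WT, and 57.4% of its transcript is repeated in pseudogenes.

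With each library left out in turn, the LPS calls given above for Ndufs4, Ndufb11, Ndufv2, Uqcrc1, Uqcrq, Cox7b, Atp5a1 and Atp5l were kept in 6 of 6 fits. Those of Ndufb4 in WT, Ndufs7, Ndufaf1, Uqcrfs1 and Cox7a2 were kept in 2 to 4 fits, that of Ndufaf3 in 4 in WT and 6 in ACAT1 KO, and that of Atp5b in 6 and 5.

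The mitochondrial genes had negative log2 fold changes after LPS in all 13 of 13 in WT and in 12 of 13 in ACAT1 KO, with medians of -0.79 and -0.50. Only 3 of 13 were called in WT and 1 of 13 in ACAT1 KO. The fit takes 1 spread per gene over all 12 libraries, so the spread of the WT libraries enters the ACAT1 KO calls. The median standard error was 0.381 in WT and 0.380 in ACAT1 KO. Per library, the mitochondrial minus nuclear median had an SD of 0.999 (WT unstimulated), 0.212 (WT LPS), 0.247 (ACAT1 KO unstimulated) and 0.0848 (ACAT1 KO LPS). The ACAT1 KO calls therefore do not measure its own libraries alone. Every LPS library lay under every unstimulated one for 2 of the 13 in WT, against 29.6% of all genes, and for 11 in ACAT1 KO, against 34.6%. mt-Atp6 was at 86.8, 28.6 and 37.4 CPM in unstimulated WT and 27.1, 16.9 and 20.7 CPM after LPS (log2 fold change -1.24, SE 0.342, adjusted p = 0.00826 in edgeR), without overlap. In ACAT1 KO it was at 31.8, 43.4 and 46.8 CPM and then 28.3, 23.5 and 22.5 CPM (log2 fold change -0.72, adjusted p = 0.0866 in edgeR). Because its copy on chromosome 1 shares nearly all its bases, this is a value of the gene as counted.

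The calls of mt-Atp8 and mt-Nd6 rested on 1 or 2 unstimulated libraries each. mt-Atp8 was at 19.2, 7.20 and 73.3 CPM in unstimulated WT and 6.86, 4.29 and 4.92 CPM after LPS, and at 7.001, 12.5 and 104 CPM and then 6.02, 5.32 and 5.78 CPM in ACAT1 KO. The third line is far above the others in both genotypes, and neither call (log2 fold change -2.65 and -2.85, adjusted p = 0.0344 and 0.024 in edgeR) was kept under the replicate block. mt-Nd6 was at 501, 284 and 49.1 CPM in unstimulated WT and 76.6, 63.9 and 56.3 CPM after LPS (log2 fold change -2.08, adjusted p = 0.0341 in edgeR). Its 2 high libraries are antisense-rich, library 3 lay under all LPS libraries, and the log2 fold change was 0.39 (adjusted p = 0.109 in edgeR) without the antisense-rich libraries. In ACAT1 KO mt-Nd6 was at 72.2, 356 and 57.0 CPM and then 56.9, 54.2 and 46.3 CPM, with no call.

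Line by line, the mitochondrial genes were lowest against their resting level in WT line 1. The median change over the 13 genes from unstimulated to LPS was -1.29 in WT line 1, -0.30 in line 2 and 0.08 in line 3, and 13, 11 and 5 of the genes were lower. In ACAT1 KO lines 1 to 3 the medians were -0.34, -0.58 and -0.34, with 11, 13 and 11 of the genes lower. The nuclear medians of the same lines lay between -0.21 and 0.13. The mitochondrial minus nuclear median was -0.76 in WT and -0.35 in ACAT1 KO over all libraries, 0.07 in WT without unstimulated library 1, and 0.36 and -0.10 without the 3 antisense-rich libraries, when WT unstimulated is left with 1 library.

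Whether the LPS response differed between genotypes was tested by the interaction term. By edgeR it was called for 0 of 106 members, against 0.187% of all genes. At an unadjusted p under 0.05 edgeR called 0 members as well, against 8.92% of all genes. DESeq2 called 0 members beside 333 genes in all, and edgeR with a replicate block 0 beside 288. The median of the term was -0.10 over the nuclear and 0.32 over the mitochondrial genes, and the latter changed sign without WT unstimulated library 1. The lists of LPS calls of the genotypes shared 5 higher genes, 71.4% of those of WT and 83.3% of those of ACAT1 KO, and 12 lower genes, 80 and 50%.

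Some subunits exist as isoforms made by separate genes, and in these cells 1 form led in each set. In unstimulated WT Cox4i1 was at 546 CPM per kb and Cox4i2, the form known from lung and low oxygen, at 0.788. Cox6a1 was at 217 CPM per kb and the muscle form Cox6a2 at 7.92. Cox7a2 was at 182 CPM per kb and the muscle form Cox7a1 at 4.70, with Cox7a2l, which helps complexes III and IV assemble into larger units, at 153. Ndufa4, a complex IV subunit despite its name, was at 298 CPM per kb and its hypoxia-linked relative Ndufa4l2 at 0.0983. The 3 genes for the identical c subunit of ATP synthase were closer, at 285 for Atp5g3, 122 for Atp5g2 and 17.1 CPM per kb for Atp5g1, whose annotated transcript is long. The leading form of each of these sets was the same in all 4 groups where both were listed.

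Motifs of 3 factors known to act on respiratory genes were each found in a minority of the members' promoters. Promoters (250 bases before to 50 after the gene start, from RefSeq, GRCm38.p6) were found for 74 of the 94 nuclear members and searched on both strands for 3 motifs. The core of the NRF1 motif, GCATGCG, was in 13 promoters, 17.6% against 4.01% of 27025 promoters and 6.86% of the 11256 promoters of listed genes. The ETS motif CCGGAAG, bound by Gabpa among others, was in 19, 25.7% against 9.93 and 19.1%. The core of the YY1 motif, AAGATGG, was in 12, 16.2% against 7.28 and 8.35%. 7 promoters held more than 1 of these motifs, and none of their matches overlapped. These shares were not tested. A match is a run of letters and does not show binding.

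The windows of 30 bases below, 5′ to 3′ on the strand of the gene, show the motif in capitals for 6 members described above (GRCm38.p6). The motif starts 32, 18, -27, -102, 35 and 24 bases from the RefSeq gene start. That start can differ from the GENCODE gene bounds given above, as it does for Ndufs3. The windows lie at chr9:108936668-108936697 (Uqcrc1, plus strand), chr2:140170652-140170681 (Ndufaf5, plus), chr2:90904731-90904760 (Ndufs3, minus), chr2:174464186-174464215 (Atp5e, minus), chr13:114388045-114388074 (Ndufs4, minus) and chr10:80249461-80249490 (Ndufs7, plus). The first pair holds the NRF1, the second the ETS motif (in Atp5e on the opposite strand) and the third the YY1 motif.
Uqcrc1: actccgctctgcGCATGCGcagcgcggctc
Ndufaf5: agtcccgttggcGCATGCGcctaatagaaa
Ndufs3: ccccgcgtccgcCCGGAAGaagagtcactg
Atp5e: ctacggccacagCTTCCGGtagccgctcgg
Ndufs4: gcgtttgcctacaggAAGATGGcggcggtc
Ndufs7: aaggccgaggccAAGATGGcggcgctggcg
In the LPS response of WT the log2 fold changes were 0.27 for Uqcrc1 and -0.01 for Ndufaf5, -0.06 and -0.04 for Ndufs3 and Atp5e, and -0.29 and -0.20 for Ndufs4 and Ndufs7.

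Other genes of the pathway, which read and supply the mitochondrial genome or build the complexes, were counted in the same fits. Of 17 genes for mitochondrial RNA processing and stability, 9 were higher and 3 lower in WT and 10 and 4 in ACAT1 KO, with medians of 0.39 and 0.30. Trmt10c, part of the RNase P that frees tRNAs from the long transcript, was at 22.8 CPM unstimulated and 57.1 CPM after LPS in WT (group means, log2 fold change 1.32, adjusted p = 6.54e-08 in edgeR) and rose by 1.13 in ACAT1 KO. Pnpt1, an exoribonuclease that degrades mitochondrial RNA, rose from 73.6 to 155 CPM in WT (log2 fold change 1.07, adjusted p = 1.03e-07 in edgeR) and by 1.23 in ACAT1 KO. The calls, 12 and 14 of 17, stand beside 57.4 and 60.7% of all genes.

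The counts of the other lists are to be read against the same 57.4% of all genes in WT and 60.7% in ACAT1 KO, and the difference of a list from these shares was not tested. Regulators of nuclear respiratory genes had 5 of 9 higher and 1 lower in WT, and 5 and 2 in ACAT1 KO. Of 15 genes for mtDNA upkeep and transcription, 4 were higher and 6 lower in WT. Twnk, the mtDNA helicase, fell by 0.83 in WT (adjusted p = 2.46e-05 in edgeR), whereas Mterf4, a mitoribosome assembly factor of the transcription terminator family, rose by 0.82 (adjusted p = 1.03e-06). Among 14 electron carrier genes (cytochrome c and coenzyme Q synthesis) 5 were higher and 5 lower in WT. The 2 Coq10 genes, whose products aid the function of coenzyme Q, went in opposite directions: Coq10b rose from 10.3 to 53.0 CPM (log2 fold change 2.36, adjusted p = 5.87e-09 in edgeR) and Coq10a fell by 0.93 in WT, with 2.19 and -1.11 in ACAT1 KO. Of 42 assembly factors outside the rule 14 were higher and 17 lower in WT, and of 80 mitoribosome genes 28 and 19. Of 13 mitochondrial rRNA and tRNA genes 1 was higher and 5 lower in WT.

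Between genotypes none of these lists had a called gene in unstimulated cells, and the interaction was called in none. After LPS, when 15.1% of all genes were called, of the 17 RNA processing genes 1 was higher and 2 lower in ACAT1 KO, of the 14 electron carriers 0 and 3, of the 80 mitoribosome genes 4 and 1, of the 9 regulators 1 and 1, of the 42 outside assembly factors 1 and 0 and of the 15 genes of the mtDNA list 0 and 1. Prorp, the nuclease subunit of mitochondrial RNase P, fell by 0.56 (adjusted p = 0.00666) and Coq6, a coenzyme Q ring hydroxylase, by 0.44 (adjusted p = 0.00971, both in edgeR).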

How the data were processed

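RNA-seq of 12 libraries was analysed, 3 per group. Per the study's methods reads were trimmed with Trimmomatic 0.33, aligned with HISAT2 and expression was quantified with StringTie, from libraries made with a directional kit. The authors deposited raw gene counts in a table per state, and how reads were assigned in these and whether strand was used is not given in the sources used here. 12 deposited per-library columns of log2 values and the authors' own comparison columns (fold changes, p-values) were not used. Repeated rows were removed (59 and 57). Groups came from the sample labels. Symbols, lengths and positions came from GENCODE M21 (GRCm38). Counts were tested with edgeR 4.0.16 (filterByExpr, TMM, two-sided quasi-likelihood test, Benjamini-Hochberg over all genes, called at adjusted p under 0.05): genotypes within a state on 6 libraries (16440 and 16483 genes), LPS responses and interaction in 1 fit of 12 libraries (16535). CPM are TMM-scaled from that fit. DESeq2 1.42.0, other scalings, no filter, a length and GC trend, a block, a term for antisense-rich libraries (over 0.03% antisense counts) and leaving out libraries were alternatives. Transcripts were compared with BLAST 2.17.0. The fits were tested on simulated data.

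Genes named are all mitochondrial members, up to 2 called genes per role, direction and comparison, isoform sets, central subunits, the extremes and up to 2 called genes per other list, unless said. Members and lists were chosen with earlier results of these data known. Line numbers pair unstimulated with LPS libraries: deviations from group means of the same number correlated at r = 0.325 to 0.579, different numbers at -0.36 to -0.0542, over 9781 genes. Between WT and ACAT1 KO libraries of the same number and state, r was -0.104 to 0.581. It was 0.581 and 0.508 for unstimulated libraries 2 and 3. Different numbers were not compared across genotypes, so whether a replicate number is shared between them was not tested. The main fits did not pair the genotypes. No 2 libraries of a group agreed within sampling noise (chi-square per degree of freedom 31.7 to 269 over 12 pairs). Totals of 56948593 to 167280149 counts left counting error small. The spread between libraries (common coefficient of variation 0.285 unstimulated, 0.108 after LPS) limited the precision. The unstimulated value includes the 3 antisense-rich libraries, so it is not a spread between lines alone.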

Additional observations from a re-analysis of the deposited data

Results flagged for a closer look

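The 7 annotated chromosome 1 copies of mitochondrial genes are not members, and no comparison above uses them, yet all were listed with counts in every library. Their summed counts were highest in WT unstimulated library 1, at 33936 (0.0502% of its counts). They were lowest as a share in WT LPS library 2, at 6874 counts (0.00621%), so a signal stood in all 12 libraries, controls included. Gm10925, the copy of mt-Atp6, had 405% of the counts of Gm28661, the copy of mt-Co2, in WT unstimulated library 1 and 108 to 144% in the 11 others.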

How the results depend on the processing

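Of 7060 values of single genes under the alternatives, 6688 kept direction and side of the threshold, 160 passed it, 200 lost it and 12 turned. The turned log2 fold changes were, with upper-quartile factors, Atp5g3 -0.022, Cox6a1 -0.20, Sdha -0.18 and Uqcrfs1 -0.019 in WT and Sdhd -0.14 in ACAT1 KO (LPS responses). Without the 3 antisense-rich libraries, an alternative chosen after seeing the data, they were mt-Nd3 0.75, mt-Nd4l 1.01, mt-Nd5 0.39 and mt-Nd6 0.39 in WT. With a term for these libraries mt-Nd6 was 0.23 in WT, and with a length and GC trend removed Cox5a was -0.15 and Cyc1 0.23 in ACAT1 KO. The cause was not tested. Members called between genotypes unstimulated were 1 (314 of all genes), and 2 (306) with upper-quartile factors, 8 (1721) by DESeq2 and 2 (664) with the term. They were 0 (74) without the 2 chromosome segments and 0 to 2 with 1 library left out. Between genotypes after LPS they were 10, 4 without the segments and 2 to 7 with 1 library left out. For LPS in WT they were 22, and 61 with upper-quartile factors, 37 with the trend removed, 38 with the term, 41 without the antisense-rich libraries and 13 to 29 with 1 library left out. For LPS in ACAT1 KO they were 30, and 62, 50, 55, 62 and 19 to 43 in the same order. The interaction called 0 throughout. The mitochondrial minus nuclear median between genotypes was -0.55 unstimulated, 0.33 without the antisense-rich libraries and -0.998 to 0.21 with 1 library left out, and after LPS -0.21 and -0.25 to -0.06. For LPS in WT it was -0.76, -0.021 with the term, 0.36 without the antisense-rich libraries and -1.13 to 0.072 with 1 library left out. In ACAT1 KO it was -0.35, and 0.00, -0.10 and -0.46 to -0.10. For the interaction it was 0.42, -0.57 without the antisense-rich libraries and -0.41 to 0.79 with 1 library left out. The term could not be fitted in the LPS libraries, which hold none of these 3. With the line number as a replicate block the calls between genotypes were 0 (151 of all genes) unstimulated and 7 (2230) after LPS. For LPS they were 31 (10248) in WT, with 20 of the main 22 among them. In ACAT1 KO they were 40 (10718), with 29 of the main 30. Depth was not the limit for members above 1 CPM, and 5 nuclear members lay under it.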
